A study of Mus musculus with 6 samples.

Results

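The genes described here are 9 components of retinoic acid synthesis and signalling in the mouse testis: Stra6, Rdh10, Aldh1a1, Aldh1a2, Crabp1, Cyp26b1, Rara, Rarg and Stra8. They were taken by symbol from the 24411 genes of each file, and all 9 were found and tested. The RNA came from whole testes of C57BL/6 mice, an inbred laboratory strain. In the 3 libraries labelled DKO (double knockout) the genotype label is MRP5-/- and MRP9-/-; the other 3 are labelled Wildtype (WT). MRP5 and MRP9 are membrane transporters encoded by Abcc5 and Abcc12. The mice are described as age-matched, and their age, the design of the alleles and any promoter or Cre used are not given in the sources used here. Nothing in the labels says how many cages or litters the mice came from, so the p-values measure the spread between these 6 samples.

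Retinoic acid is the active form of vitamin A. Retinol is taken up through receptors such as STRA6, oxidised to retinaldehyde by RDH10 and then to retinoic acid by the ALDH1A enzymes. CRABP1 binds retinoic acid in the cytoplasm, CYP26B1 breaks it down, and the nuclear receptors RARα and RARγ, paired with RXR, carry its signal to genes. In the testis this signal drives spermatogonia to differentiate and germ cells to enter meiosis, and Stra8 is the best known germ-cell gene that it switches on.

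The libraries labelled DKO held 42673615 to 67131103 expected counts in all and those labelled WT 26753721 to 31745969. Mean fragment length, recovered from the deposited lengths, did not overlap between the groups either, at 275.5 to 317.4 bases in DKO against 230.4 to 257.9 bases in WT. Abcc12 had 72.6 to 82.4 CPM (each library's counts scaled to a fixed total, after TMM normalisation) in the libraries labelled DKO against 157.6 to 164.8 CPM in WT, so it was lower there but still counted. Abcc5 was not lower, at 16.7 to 17.0 CPM in the libraries labelled DKO against 10.5 to 12.3 CPM in WT. Its transcript amount therefore does not show the loss that the label names. With the design of the alleles not given, it cannot decide whether the gene's function was lost. Spermatid markers dominated all 6 libraries. The 7 epididymal markers summed to 6.39 to 7.44 TPM (transcripts scaled for length) in DKO and 5.1 to 6.98 TPM in WT, nearly all of it from Rnase10, and Lcn5 and Lcn8 were at 0 in each library.

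Receptors of the RAR family bind pairs of the half-site AGGTCA and its variants. The 250 bases before each start site with a promoter sequence were therefore searched on both strands. The search was for AGGTCA itself, for the spelling GGGTCA, for the spelling AGTTCA and for the spelling GGTTCA. RefSeq sequences of the GRCm38.p6 build gave 16 such windows for 8 of the 9 genes. They do not cover every RefSeq gene start. The Stra8 gene spans 34920163 to 34939344, so its window lies inside that span. No window lies before the first base of Stra6 or Rara. Shown are Stra8, the textbook target, Crabp1, the gene that differed between the genotypes, and the Rara window with the most matches. Matches are in capitals, including those on the opposite strand, and each run is written 5′ to 3′ along the gene.
Stra8 chr6:34920698-34920947 (plus strand): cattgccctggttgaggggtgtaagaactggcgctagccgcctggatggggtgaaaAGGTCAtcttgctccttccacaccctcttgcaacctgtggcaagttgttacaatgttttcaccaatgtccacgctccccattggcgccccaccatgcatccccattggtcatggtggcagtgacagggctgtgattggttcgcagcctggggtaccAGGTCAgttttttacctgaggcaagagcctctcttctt
Crabp1 chr9:54764498-54764747 (plus strand): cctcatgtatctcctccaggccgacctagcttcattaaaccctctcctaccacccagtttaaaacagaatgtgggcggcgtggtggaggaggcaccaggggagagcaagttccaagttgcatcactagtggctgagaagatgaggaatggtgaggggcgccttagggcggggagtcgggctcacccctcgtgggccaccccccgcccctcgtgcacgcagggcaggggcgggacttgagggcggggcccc
Rara chr11:98939461-98939710 (plus strand): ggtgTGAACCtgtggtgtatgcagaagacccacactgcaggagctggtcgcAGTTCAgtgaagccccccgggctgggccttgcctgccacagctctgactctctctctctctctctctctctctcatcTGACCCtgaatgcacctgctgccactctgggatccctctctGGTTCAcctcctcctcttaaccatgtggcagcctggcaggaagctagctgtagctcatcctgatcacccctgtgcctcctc

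The Stra8 window holds AGGTCA at 2 places, beginning 194 and 38 bases before the start site that the window precedes. Among all 32851 windows, 14.0% held AGGTCA on either strand and 1.36% held it at least 2 times. The Rara window holds 4 matches, none of them AGGTCA, and the Crabp1 window holds none of the 4 spellings. Over the 16 windows of these genes, 4 held some half-site, against 38.6% of all windows. None held a direct repeat spaced by 1, 2 or 5 bases, an arrangement found in 0.426% of all windows. These matches describe the letters in the windows and do not show binding.

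Levels were compared between genes in TPM, the share of each library's transcripts scaled to a fixed total, which accounts for transcript length. The enzymes that make retinoic acid were the most abundant. Aldh1a1 averaged 133.6 ± 33.8 TPM and Aldh1a2 95.6 ± 5.10 TPM over all 6 libraries (SD, n = 6), and their ranges overlapped. A wide step separated them from Cyp26b1 at 14.2 ± 2.14 TPM, Rdh10 at 10.9 ± 0.974, Stra8 at 10.5 ± 1.54, Rara at 9.66 ± 1.03 and Crabp1 at 9.66 ± 2.40 TPM. Each neighbouring pair among these 5 overlapped in range. Stra6 at 3.19 ± 0.364 TPM and Rarg at 2.43 ± 0.211 TPM were lowest and overlapped each other.

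Of the 9 genes, 1 was called between the genotypes at an adjusted p under 0.05 (edgeR quasi-likelihood test over all 17110 tested genes). That gene was Crabp1, which was lower in the libraries labelled DKO. The count is 11.1% of the genes, and 10.8% of all tested genes were called, 5.75% as higher and 5.10% as lower, so the share is that of the background. On log2(TPM + 1) with limma, the calls over all genes were 279 higher and 456 lower, against 984 higher and 872 lower here. CPM values of the groups did not overlap for 2 of the 9 genes, Crabp1 and Rara, or 22.2%, against 35.9% of all tested genes. The median log2 fold change of the 9 genes, DKO over WT, was -0.09, beside -0.0042 over all genes tested. In this bulk RNA, fewer cells of a type and less RNA per cell cannot be told apart.

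**Figure D1:**
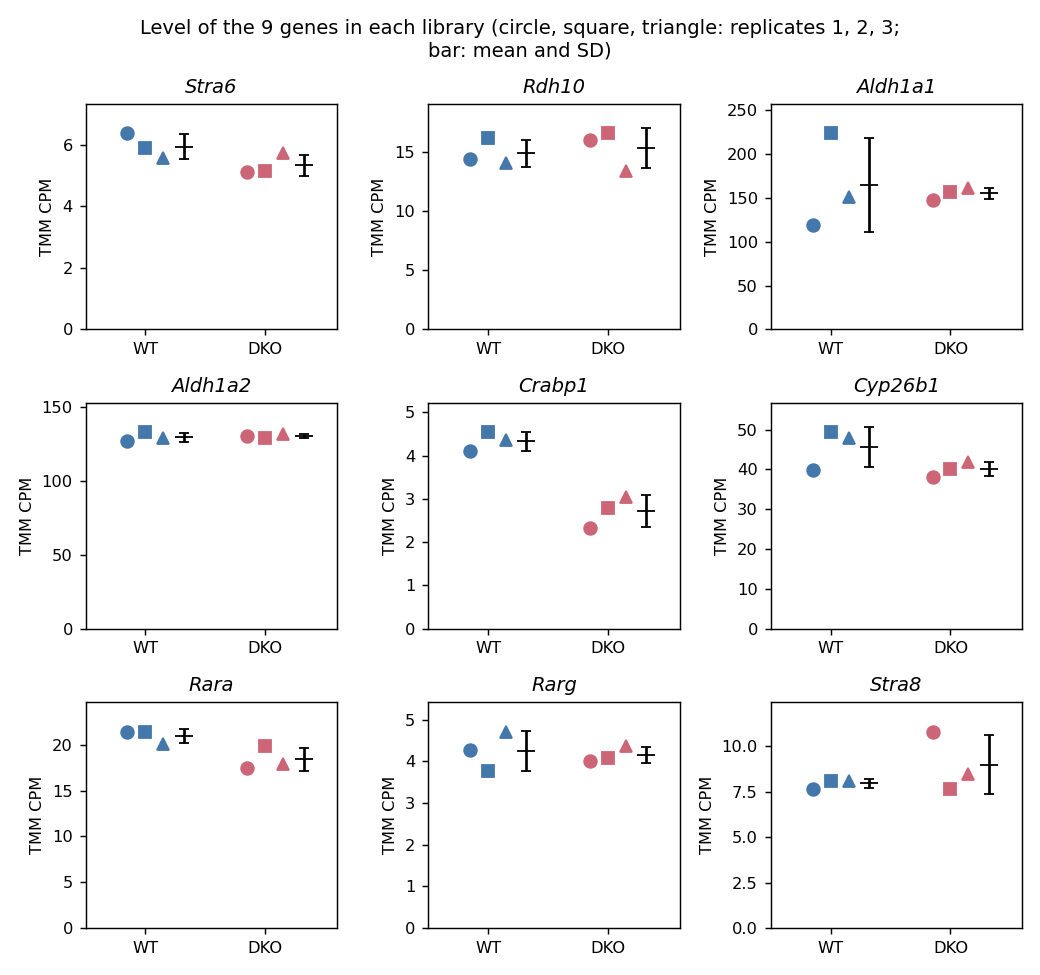
TMM-normalised CPM (vertical axes from 0) of each gene in the 3 WT (blue) and 3 DKO (red) libraries, with replicate 1 as a circle, 2 as a square and 3 as a triangle, and the mean with its SD at the right of each group. Replicate numbers follow the order of the samples within each group and pair no libraries. The groups separate for Crabp1 and Rara, while for Aldh1a1 the WT libraries spread from 119.5 to 224.1 CPM around the DKO values.

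Uptake and synthesis genes were examined first. Stra6, the membrane receptor that takes up retinol from its carrier protein, had 5.12, 5.16 and 5.71 CPM in DKO replicates 1 to 3 and 6.37, 5.88 and 5.56 CPM in WT. The highest DKO library lay above the lowest WT library. On the log2 scale DKO over WT was -0.15, with SE 0.113 and an approximate 95% interval from -0.40 to 0.10 (edgeR adjusted p = 0.386).

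Rdh10, the dehydrogenase that turns retinol into retinaldehyde, had 16.0, 16.6 and 13.4 CPM in DKO and 14.3, 16.2 and 14.1 CPM in WT. Both the highest and the lowest library carried the DKO label. Its log2 fold change of 0.04 had an interval from -0.19 to 0.27 (edgeR adjusted p = 0.836).

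Aldh1a1, a retinaldehyde dehydrogenase known from Sertoli and Leydig cells, had 148.1, 156.5 and 160.9 CPM in DKO and 119.5, 224.1 and 150.8 CPM in WT. The WT libraries enclosed all 3 DKO values, and WT replicate 2 was the highest of the 6. Its log2 ratio, DKO over WT, was -0.09 (SE 0.171; interval -0.46 to 0.29; edgeR adjusted p = 0.760), the widest interval of the 9 genes. Without WT replicate 2 it was 0.19 (edgeR adjusted p = 0.293). That library also had the highest summed level of the 10 Leydig markers, 3218 TPM against 913.5 to 2034 TPM in the other 5, and of the 13 Sertoli markers, 2629 TPM against 1607 to 2227 TPM. The same library was highest for the peritubular myoid, macrophage and endothelial markers too, at 478.9, 124.0 and 13.8 TPM. The part of these cell types in its Aldh1a1 level was not tested.

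Aldh1a2, the dehydrogenase known from spermatocytes, was the steadiest of the 9 genes. It had 130.7, 129.1 and 131.8 CPM in DKO and 127.1, 133.1 and 129.3 CPM in WT, and the WT values again enclosed those of DKO. At 0.01 on the log2 scale, DKO over WT, its difference had an interval from -0.13 to 0.15 (SE 0.0643; edgeR adjusted p = 0.947). The ratio of Aldh1a1 to Aldh1a2 in TPM was 1.35 ± 0.0526 in DKO and 1.43 ± 0.429 in WT (SD, n = 3 each), with overlapping values.

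Crabp1, on chromosome 9 (RefSeq GRCm38.p6, 54764748 to 54773110), encodes the cytoplasmic binding protein for retinoic acid and is known from spermatogonia. It had 2.33, 2.79 and 3.05 CPM in DKO replicates 1 to 3 and 4.10, 4.54 and 4.36 CPM in WT. Every DKO library lay below every WT library. The mean fell from 4.33 ± 0.221 CPM in WT to 2.73 ± 0.365 CPM in DKO (SD, n = 3 each). The fitted level in DKO was 63.2% of WT, or -0.66 on the log2 scale, with SE 0.144 and an interval from -0.98 to -0.35 (edgeR adjusted p = 0.0287). In TPM the values were 7.60 ± 0.951 in DKO against 11.7 ± 0.880 in WT (SD, n = 3 each).

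Few fragments stood behind Crabp1, between 97 and 206 expected counts per library. With every library thinned to the smallest total, the log2 fold change was -0.60 and the call was lost (edgeR adjusted p = 0.0517). The call also depended on single libraries. It was lost without DKO replicate 1, DKO replicate 2, WT replicate 2 or WT replicate 3 (edgeR adjusted p = 0.114, 0.0552, 0.0942 and 0.101), and it held without DKO replicate 3 or WT replicate 1 (0.0131 and 0.0286). This was not particular to Crabp1. Over all genes, the fits where it was lost called 11, 655, 13 and 7 genes in that order. The fits where it held called 3029 and 2037, against 1856 with all libraries. Over these 6 fits the log2 fold change stayed between -0.76 and -0.58.

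Crabp1 has the shortest transcript of the 9 genes, 802 bases. It belongs to the shortest of 10 classes of genes by length (292 to 978 bases), in which the median log2 fold change was -0.15 and 16.0% of genes were called lower. The fragment lengths given above also differ between the groups. With an offset from each library's effective lengths, Crabp1 was at -0.57 (edgeR adjusted p = 0.0369), and with each library's trend on transcript length removed it was at -0.56 (edgeR adjusted p = 0.0355). Of the 11 spermatogonial markers tested, 0 were called by edgeR, beside 10.8% of all tested genes. Only Id4, at 0.21 on the log2 scale, had an unadjusted p under 0.05. The summed level of the list overlapped, at 119.8 to 135.9 TPM in DKO and 116.5 to 135.8 TPM in WT. Uchl1 and Id4 made up most of that sum. The part of spermatogonia in the Crabp1 values was not tested.

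**Figure D2:**
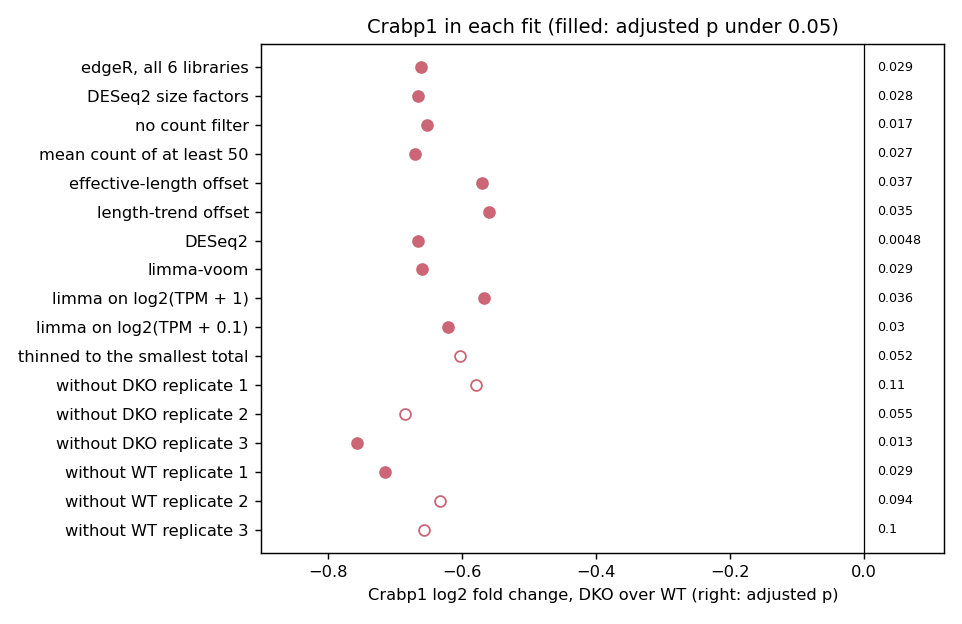
Log2 fold change of Crabp1, DKO over WT (horizontal axis), in each fit (vertical axis), with the adjusted p at the right; filled points had an adjusted p under 0.05. All 17 estimates lie between -0.76 and -0.56, and 5 of them are not past the threshold.

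Cyp26b1 encodes the enzyme that breaks down retinoic acid, known from the peritubular cells that surround the tubules. It had 38.2, 40.2 and 41.8 CPM in DKO and 39.9, 49.3 and 47.8 CPM in WT. WT replicate 1 lay within the DKO range, and the other two WT libraries lay above it. The log2 fold change was -0.19 (SE 0.0883; interval -0.38 to 0.0043; edgeR adjusted p = 0.167). Without WT replicate 1 it was -0.29 and passed the threshold (edgeR adjusted p = 0.0452). The 7 markers of peritubular myoid cells had a summed level of 370.0 to 404.3 TPM in DKO and 445.6 to 478.9 TPM in WT, without overlap. Most of that sum was Actg2, which averaged 309.7 TPM in DKO and 355.1 TPM in WT, and 1 of the 7 markers, Tagln, was called (lower). Their part in the Cyp26b1 values was not tested. The summed TPM of Aldh1a1 and Aldh1a2 over that of Cyp26b1 was 17.6, 17.0 and 16.7 in DKO and 14.5, 17.2 and 13.9 in WT. This ratio compares transcripts of these genes in whole testis and does not measure retinoic acid made or broken down.

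Rara encodes RARα, the receptor known from Sertoli cells and germ cells. It had 17.5, 19.8 and 17.9 CPM in DKO and 21.4, 21.4 and 20.1 CPM in WT. All DKO values lay below all WT values, by a narrow gap between DKO replicate 2 and WT replicate 3. The log2 fold change was -0.19 (SE 0.0847; interval -0.37 to -0.0028), and the difference was not past the threshold after adjustment over all genes (edgeR adjusted p = 0.152). Of the 13 Sertoli markers, 5 were called lower and 0 higher, beside 5.10% and 5.75% of all tested genes. The 5 were Defb19 (log2 fold change -0.97), Rhox5 (-0.44), Trf (-0.43), Dhh (-0.42) and Cldn11 (-0.30). Not called were Sox9, Wt1, Amhr2, Fshr, Gata1 and Gata4 (log2 fold change -0.15 to 0.08), Clu (-0.21) and Inha (-0.28). The summed level of all 13 was 1607 to 2008 TPM in DKO against 2082 to 2629 TPM in WT. Clu and Defb19 made up most of that sum. The part of these markers in the Rara values was not tested.

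Rarg encodes RARγ, the receptor known from spermatogonia. It had 4.01, 4.09 and 4.38 CPM in DKO and 4.29, 3.76 and 4.72 CPM in WT, so the WT values enclosed those of DKO. The log2 fold change of -0.03 had an interval from -0.31 to 0.26 (edgeR adjusted p = 0.905). Rara exceeded Rarg in TPM in every library, by a ratio of 3.77 ± 0.354 in DKO and 4.21 ± 0.578 in WT (SD, n = 3 each), and the ratios overlapped.

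Stra8, which germ cells need to enter meiosis normally, had 10.8, 7.657 and 8.48 CPM in DKO and 7.664, 8.12 and 8.08 CPM in WT. DKO replicate 1 was the highest library, whereas DKO replicate 2 lay just under the lowest WT library. The log2 fold change was 0.17 (SE 0.129; interval -0.11 to 0.45; edgeR adjusted p = 0.386). Without DKO replicate 1 it was 0.0085 (edgeR adjusted p = 0.974). This gene, whose window holds AGGTCA at 2 places, did not pass the test, and a difference of up to 0.45 on the log2 scale lies within its interval.

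**Figure D3:**
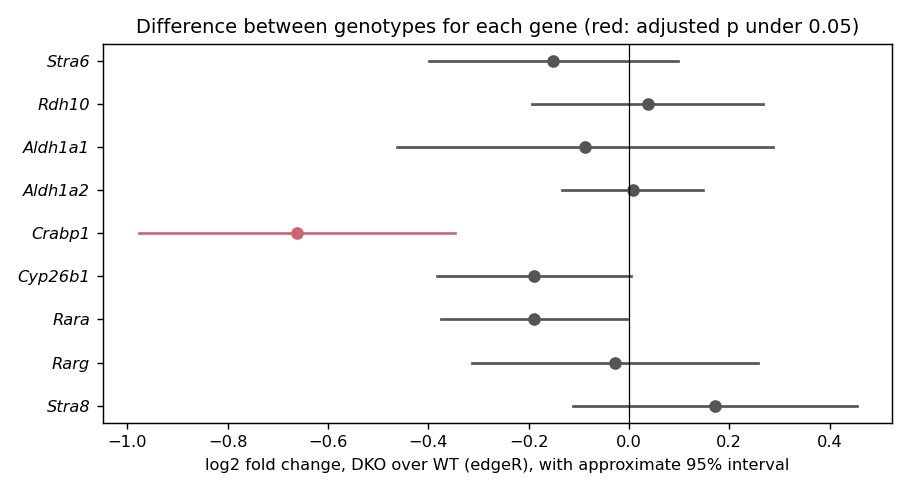
Log2 fold change of each gene, DKO over WT (horizontal axis), as a point with its approximate 95% interval; red marks an adjusted p under 0.05. The interval of Crabp1 lies from -0.98 to -0.35, that of Aldh1a2 is the narrowest, from -0.13 to 0.15, and that of Aldh1a1 is the widest.

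The deposited length of a gene is weighted by the estimated amounts of its transcripts, so it shows a change in transcript mix that the counts do not. Of the 9 genes, 5 have more than 1 annotated transcript. Lengths averaged 3252 ± 6.69 bases in DKO and 3260 ± 10.3 bases in WT for Rara, and 2809 ± 18.7 and 2796 ± 28.0 bases for Rarg (SD, n = 3 each). Exact two-sided permutation tests gave p from 0.2 to 1 over the 5 genes (adjusted p of 0.833 to 1), where 3 against 3 libraries allow no p below 0.1. The Crabp1 length was 802 bases in all 6 libraries, so its outcome was fixed and says nothing on its transcript mix. Cyp26b1 varied only from 4700 to 4706 bases. None of the 9 genes shares exon sequence positions with another gene in GENCODE M21, and their counts were whole numbers in all 6 libraries.

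The wider pathway was described by 3 lists of other genes, for retinoid metabolism, receptors with cofactors, and genes known to respond to retinoic acid in germ cells or elsewhere. Of 51 tested genes on them, 7 were called by edgeR (13.7%, beside 10.8% of all tested genes), 1 higher and 6 lower. Of the 21 tested metabolism genes, 2 were called, both lower, and the median log2 fold change was -0.02. Of the 19 receptor and cofactor genes, 3 were called, all lower, and the median was 0.03. Of the 11 tested response genes, 1 was called higher and 1 lower, with a median of 0.02. None of the 7 was called without DKO replicate 1, WT replicate 2 or WT replicate 3. Those fits called only 11, 13 and 7 of all genes, against 1856 with all libraries. In them, 10, 13 and 15 of the list genes tested had an unadjusted p under 0.05 in edgeR. Over all tested genes, the same fits had 3571 of 17097, 3793 of 17403 and 4326 of 17431 under that p.

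Among metabolism genes, Fabp5, a fatty acid-binding protein that can also carry retinoic acid, fell from 11.9 ± 2.11 CPM in WT to 7.07 ± 0.670 CPM in DKO (n = 3 each, SD), at -0.75 on the log2 scale with SE 0.132 (edgeR adjusted p = 0.0237). Adh1, an alcohol dehydrogenase that can oxidise retinol, fell from 5.37 ± 0.464 to 3.52 ± 0.162 CPM (-0.61 on the log2 scale with SE 0.123, edgeR adjusted p = 0.0263). Neither gene overlapped between the groups. Adh1 overlaps an antisense gene whose reads cannot be told apart, since strand handling is not given in the sources used here. Aldh1a7, a close relative of Aldh1a1 singled out for that reason after its values were seen, was at -0.32 on the log2 scale with SE 0.146 (edgeR adjusted p = 0.162).

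Rxrb and Hdac3 were among the called receptor and cofactor genes. Rxrb encodes a partner of the RAR proteins and fell from 32.5 ± 0.632 CPM in WT to 27.03 ± 1.195 CPM in DKO (n = 3 each, SD), at -0.27 on the log2 scale with SE 0.0733 (edgeR adjusted p = 0.0438). Hdac3, a histone deacetylase, fell from 59.5 ± 1.29 to 50.2 ± 2.40 CPM (log2 fold change -0.24; edgeR adjusted p = 0.0476). Neither gene overlapped between the groups. Rxrb was called in 0 of the 6 fits that left out a library and Hdac3 in 1. With all libraries, Rxrb was called in 7 and Hdac3 in 6 of the 10 other fits.

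Of the response genes, Sycp3, a synaptonemal complex protein of the meiotic programme, rose from 85.4 ± 11.7 CPM in WT to 136.2 ± 22.1 CPM in DKO (n = 3 each, SD), at 0.67 on the log2 scale with SE 0.122 (edgeR adjusted p = 0.0237). Tgm2, a transglutaminase induced by retinoic acid in many cells, fell from 33.6 ± 8.01 to 23.4 ± 1.49 CPM (-0.53 on the log2 scale with SE 0.140, edgeR adjusted p = 0.0396). Without WT replicate 2, its highest library at 42.2 CPM, Tgm2 was at -0.34 and the call was lost (edgeR adjusted p = 0.133), as it was with limma on log2(TPM + 1) and log2(TPM + 0.1) (adjusted p = 0.0849 and 0.0767). The Tgm2 call was also lost without DKO replicate 1, DKO replicate 2 or WT replicate 3 (edgeR adjusted p = 0.163, 0.0818 and 0.109). Both Sycp3 and Tgm2 overlap at least 1 gene on the opposite strand, with the same limit as Adh1. Sycp3 is also a spermatocyte marker, and 3 of the 12 markers of that list were called, all higher, with summed levels of 1254 to 1439 TPM in DKO against 1151 to 1228 TPM in WT. Sycp3 itself is 1 of those 3 and, at 233.8 TPM in DKO and 146.4 TPM in WT, part of that sum, so the list is not separate from it; the others were Hormad1 and Tdrd5. Leydig markers (3 of 10 called, all lower) summed to 913.5 to 1577 TPM in DKO and 1559 to 3218 TPM in WT, most of it from Insl3. The part of these cell types in the pathway genes was not tested.

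**Figure D4:**
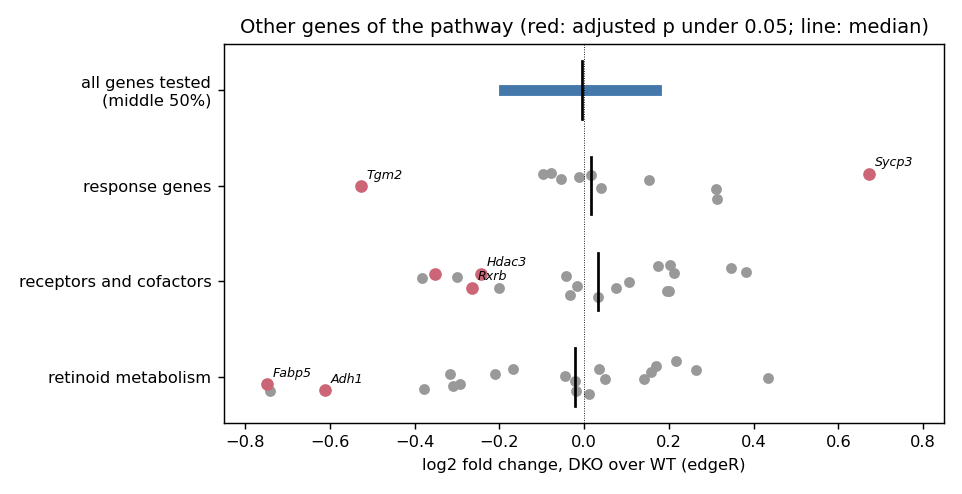
Log2 fold change, DKO over WT (horizontal axis), of the tested genes on the 3 pathway lists, with called genes in red, those described in the text named, a vertical line at each median and, at the top, the middle 50% of all 17110 tested genes. Called genes lie on both sides of 0 only among the response genes, and each list median lies near 0 (-0.02 to 0.03).

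The tested genes whose CPM followed Crabp1 most closely over the 6 libraries were Stoml1 (Pearson r = 0.998), Gtpbp3 (r = 0.997) and Ring1 (r = 0.996), out of 15078 compared. With 6 libraries in 2 separated groups such values are common: 1333 genes had r above 0.9. Among the 9 genes themselves, the highest of the 36 pairwise r values joined Aldh1a1 to Aldh1a2 (0.886) and Rara to Crabp1 (0.828), and the lowest joined Rarg to Rdh10 (-0.787). These are descriptions, since depth and genotype differ together between these libraries.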

How the data were processed

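RNA sequencing libraries of testis, 3 labelled DKO and 3 labelled WT by genotype, were analysed. Per the submitters' processing notes, STAR 2.7.0f, RSEM 1.2.31, DESeq2 1.12.3 and mm10 were used; strand handling is not given in the sources used here. Per the file headers, the authors deposited RSEM gene-level files with an expected count, TPM and lengths in bases per gene (other columns were not used); 93.2% of counts were whole.

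Counts were rounded, filtered by filterByExpr and fitted across all genes with edgeR 4.0.16 (TMM, quasi-likelihood, genotype only; Benjamini-Hochberg). The SE is the absolute log2 fold change over the square root of F. Alternatives used limma 3.58.1 (with a trend on log2 TPM), DESeq2 1.42.0 and mgcv 1.9.3 for the length trend; the fit was tested on simulated data. The 9 genes, the lists and the naming rule (called genes, up to 6 per list, and the 3 most alike) were chosen with earlier results of these data known. RefSeq GRCm38.p6 gave positions and promoters (Rdh10 had no entry). Meiosin, on the response list, was not analysed here. One called gene of the pathway lists is not reported here by name.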

Additional observations from a re-analysis of the deposited data

How the results depend on the processing

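No paired analysis was possible because the labels give the groups no shared replicate numbers. Against 1856 genes called, DESeq2 called 2943, limma 735 on log2(TPM + 1) and 947 on log2(TPM + 0.1), an adjusted p under 0.01 left 7, and the fits without 1 library called 7 to 3029. Of the 9 genes, where Crabp1 alone was called, 0 were called after thinning to the smallest total or at 0.01 (2 at an unadjusted p under 0.05 in edgeR each time) and 0 to 2 without 1 library. Of the pathway list genes, 7 were called, against 11 by DESeq2, 4 and 4 on log2(TPM + 1) and log2(TPM + 0.1), 0 at 0.01 (16 at an unadjusted p under 0.05 in edgeR) and 0 to 9 without 1 library. Over all tested genes, 31.7% had an unadjusted p under 0.05 in edgeR with all libraries, and 5012 of 16596 did after thinning. DESeq2 size factors, both count filters, limma-voom and both length offsets left the Crabp1 call in place. Signs changed only for genes that passed no threshold. Rdh10 was at -0.0110 on log2(TPM + 1), -0.0117 on log2(TPM + 0.1) and -0.0029 after thinning, and Aldh1a2 at -0.0414, -0.0418 and, with a mean count of at least 50, -0.0011. Rarg was at 0.0142 after thinning. Without 1 library the log2 fold changes ranged from -0.0327 to 0.129 for Rdh10, -0.29 to 0.19 for Aldh1a1, -0.0237 to 0.0186 for Aldh1a2 and -0.12 to 0.0549 for Rarg. The cause of these changes was not tested. Crabp1, Rarg and Stra6 had the fewest counts behind them, 97 to 386 per library.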
